A study of Mus musculus with 4 samples.

Results

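The genes examined were 8 targets of the liver X receptors (LXRs), Nr1h3, Abca1, Abcg1, Apoe, Pltp, Mylip, Srebf1 and Lpcat3, out of the 33696 genes counted in each library. They were taken by symbol as textbook targets, with earlier results of these data known, and each symbol matched 1 row of the count tables. Single cells came from liver fine-needle aspirates (FNA) of C57BL/6J mice, all fed an FPC diet, which holds fructose, palmitate, cholesterol and trans-fat. The P-LC24 mice had received 0.05% cholesterol and the P-HC24 mice 1.25% cholesterol for 24 weeks. The I-LC32 mice stayed on 0.05% to week 32, and the I-HC32 mice received 1.25% for 24 weeks and then 0.05% for 8 weeks. The week 24 comparison, P-HC24 over P-LC24, is called Progression (Prog) below, and the week 32 comparison, I-HC32 over I-LC32, Intervention (Int). P-HC24 and I-HC32 are called the high cholesterol libraries after their diet in the first 24 weeks, and the other pair the low cholesterol libraries. Each library pooled 12 aspirates, 4 from each of 3 mice. The same mice of an arm were aspirated at both weeks. With 1 pooled library per condition there were no replicates, so no test was run. Every interval below is an exact 95% interval that covers counting error only, and diet, mice and library handling cannot be told apart.

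The LXRs are nuclear receptors that bind oxidised forms of cholesterol, pair with the retinoid X receptor (RXR), and switch on genes that move cholesterol out of cells and onto lipoproteins. Macrophages rely on this programme when they take up lipid-rich debris, and the α form of the receptor, encoded by Nr1h3, acts on its own gene in some macrophages. The members cover the receptor itself (Nr1h3), cholesterol efflux (Abca1, Abcg1), lipid carriers and transfer (Apoe, Pltp), receptor turnover (Mylip), and lipid synthesis and membrane remodelling (Srebf1, Lpcat3).

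LXR-RXR pairs bind direct repeats of a short element, and the promoters of Abca1 and Srebf1 are shown because each holds such a repeat close to its start. The motif searched, on both strands, was GGTNA and GGTCA separated by 5 bases of any kind. The table of RefSeq promoters (GRCm38.p6, 250 bases before to 50 bases after each start) held 12 promoters for 7 of the 8 members, with no entry for Abcg1. The motif stood in 2 of those 7 genes and in 61 of the 27025 genes with a promoter in the table (0.226%). The open base of GGTNA was T in the Abca1 and the Srebf1 match, and these counts are not a test of enrichment. Both windows matched GRCm39 once, on the minus strand. The Abca1 window, chr4:53159903-53160007, overlapped no annotated exon. The Srebf1 window, chr11:60101420-60101524, also overlapped no exon and lay within the span of 19 of the 29 annotated Srebf1 transcripts. Capitals mark the motif, which reads on the opposite strand to the gene, 67 to 53 bases before the Abca1 start and 182 to 168 bases before the Srebf1 start.
Abca1: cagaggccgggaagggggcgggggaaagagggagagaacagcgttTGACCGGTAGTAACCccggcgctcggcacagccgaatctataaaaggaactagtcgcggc
Srebf1: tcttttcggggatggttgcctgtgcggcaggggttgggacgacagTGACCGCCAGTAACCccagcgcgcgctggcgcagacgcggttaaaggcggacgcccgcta
A match is a description of these letters and not of binding.

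The 4 libraries held 7035 to 9828 barcodes, of which 4930 to 6978 were kept with 38509673 to 77017579 unique molecular identifiers (UMIs, 1 per captured RNA molecule). Between 17 and 41 barcodes were shared by any pair of libraries. Cells were gated on raw UMIs of marker genes that are not members, and 88.1% to 93.3% of kept cells fell into exactly 1 gate. Every set of 4 values below runs from P-LC24 through P-HC24 and I-LC32 to I-HC32. The macrophage gate held 46, 398, 57 and 603 cells and the monocyte gate 144, 161, 185 and 86 cells. The dendritic cell gate held 18, 30, 32 and 38 cells. The B cell gate held 3139, 4377, 4680 and 4737 cells and the T cell gate 997, 1051, 1542 and 993 cells. Levels are given as CPM, the UMIs of a gene per 1000000 UMIs of all cells of a class in a library.

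The gated macrophages carried markers of peritoneal macrophages, while markers of the resident macrophages of liver (Kupffer cells, KCs) differed from each other. Gata6, the transcription factor that defines macrophages of the peritoneal cavity, was detected in 65.2%, 71.4%, 75.4% and 81.9% of gated cells. The summed level of 5 peritoneal markers (Gata6, Prg4, Alox15, Ltbp1, Selp) was 7642, 7050, 7459 and 9036 CPM. Clec4f, which defines KCs, had 6 UMIs in P-LC24 and 0 in the other 3 libraries. Cd5l, also on the list of KC markers, had a mean of 894 CPM over the 4 libraries. Vsig4 and Timd4 of that list were markers of the gate itself. Cells with at least 10 UMIs of the 5 peritoneal markers numbered 31, 391, 50 and 596 and are called peritoneal-marker macrophages below. The other 15, 7, 7 and 7 cells were too few to compare between libraries. They were also shallower, with a median of 8573, 7841, 6277 and 8599 UMIs, against 29497, 21169, 22551 and 20695.5 in the peritoneal-marker macrophages, and the limit was on raw UMIs. Those other cells made up 32.6% of macrophages in P-LC24 and 12.3% in I-LC32, against 1.76% in P-HC24 and 1.16% in I-HC32, so the macrophage ratios are also given for the peritoneal-marker cells. The limit of 10 UMIs was chosen after the data had been seen.

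**Figure D1:**
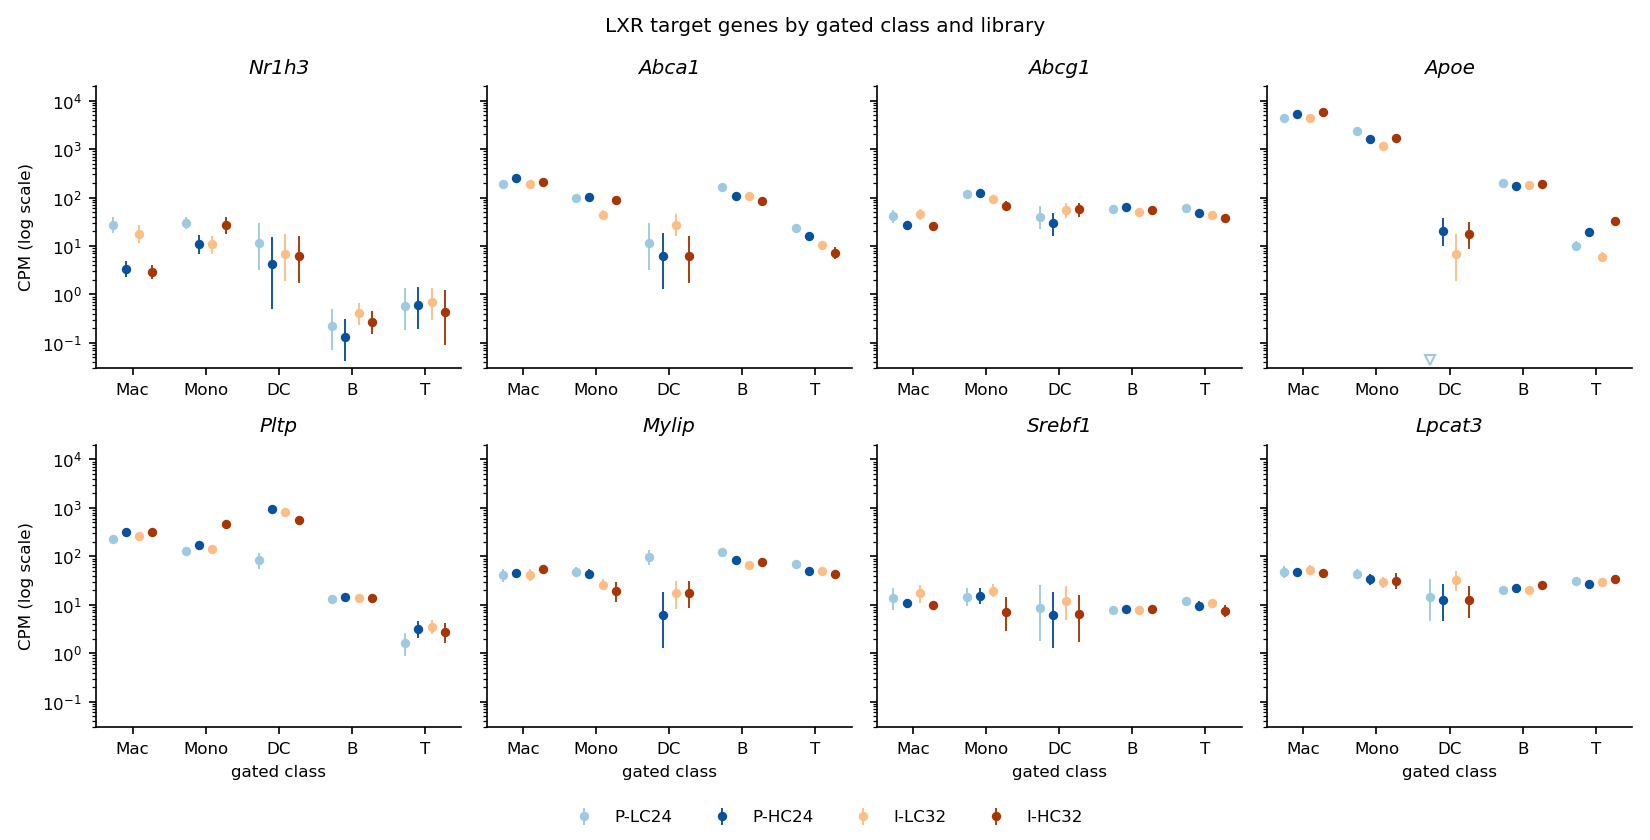
Level of each of the 8 LXR target genes (CPM, log axis) in macrophages, monocytes, dendritic cells, B cells and T cells of the 4 libraries. Bars are exact 95% Poisson intervals and an open triangle marks a class with 0 UMIs; Apoe spans from a mean of 4930 CPM in macrophages to 11.3 CPM in dendritic cells, whereas Srebf1 lies between 8.11 and 14.3 CPM in all 5 classes.

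The members differed in which class held most of their RNA, as the plot of levels by class shows. The mean and standard deviation (SD) given here run over the 4 libraries, which differ in diet and week, and describe spread only. Apoe was highest in macrophages (4930 ± 684 CPM, SD, n = 4 libraries), followed by monocytes (1694 ± 501) and B cells (187 ± 10.2), with no overlap between these classes. Abca1 was also highest in macrophages (209 ± 26.9 CPM), while B cells (117 ± 32.4) and monocytes (83.6 ± 26.8) overlapped each other. Mylip was highest in B cells (87.5 CPM) and Abcg1 in monocytes (101 ± 25.2 CPM). Pltp was highest in dendritic cells (607 ± 388 CPM), overlapping macrophages (280 CPM) and monocytes (229 CPM). Nr1h3 was highest in monocytes (19.5 ± 9.93 CPM), overlapping macrophages (12.9 CPM) and dendritic cells (7.20 CPM). Over the classes, Srebf1 ran from 8.11 to 14.3 CPM and Lpcat3 from 18.0 to 48.0 CPM. Within every library, macrophages exceeded monocytes in Abca1 by 0.98 to 2.10 and in Apoe by 0.89 to 1.95 on the log2 scale, and were below them in Abcg1 by 1.03 to 2.21, with intervals that excluded 0 in 4 of 4 libraries.

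Between diets, a gene was compared in a class if both libraries together held at least 100 of its UMIs and at least 10% of cells in 1 of them had 1, and a ratio of at least 1.2-fold was counted. In Prog, 3 of 7 compared members were higher and 2 lower in all macrophages, beside 18.2% and 44.5% of all 6934 genes compared, and in Int 3 were higher and 2 lower of 7, beside 17.2% and 29.3% of 8093 genes. In peritoneal-marker macrophages 4 members were higher and 1 lower of 7 in Prog, beside 20.6% and 38.1% of genes, and 5 were higher and 1 lower of 7 in Int, beside 19.8% and 25.8%. The median log2 ratio of the compared members there was 0.53 in Prog and 0.43 in Int, and that of all genes −0.13 and −0.05. These counts rest on CPM: the P-LC24 peritoneal-marker cells held more UMIs (median 29497, against 21169 in P-HC24). With UMIs per cell in place of CPM, 0 members were higher and 3 lower in Prog, beside 4.33% and 81.4% of all genes. The share of all genes past 1.2-fold that were higher moved in the same way, from 35.0% to 5.05% in Prog and from 43.4% to 17.7% in Int, and with size factors, which set the middle of all genes to no change, it was 51.1% in Prog. In all macrophages that share was 29.0% in Prog (49.7% with size factors, 16.2% by UMIs per cell) and 36.9% in Int (49.7% and 24.1%).

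Nr1h3 (ENSMUSG00000002108, GRCm39 chr2:91014394-91033417, minus strand) encodes LXRα, and it was nearly undetected in peritoneal-marker macrophages. Its level there was 1.02, 2.61, 3.30 and 2.77 CPM, from 1, 22, 4 and 35 UMIs. In all macrophages it was 27.3, 3.41, 17.9 and 2.91 CPM, with the low cholesterol libraries above both high cholesterol libraries. That order followed the few cells under the limit of peritoneal marker UMIs. They supplied 96.7%, 24.1%, 82.6% and 5.41% of macrophage Nr1h3 UMIs from 10.6%, 0.965%, 5.50% and 0.662% of all macrophage UMIs. With under 100 UMIs in either comparison, Nr1h3 was not compared between diets. In monocytes its level was 29.6, 11.2, 10.8 and 26.5 CPM, above peritoneal-marker macrophages in 4 of 4 libraries. B cells (0.131 to 0.409 CPM) and T cells (0.431 to 0.686 CPM) had between 3 and 17 UMIs each. The Nr1h3 row shares its span with Acp2 on the opposite strand and with Gm13783, a counted non-coding RNA gene, on the same strand.

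**Figure D2:**
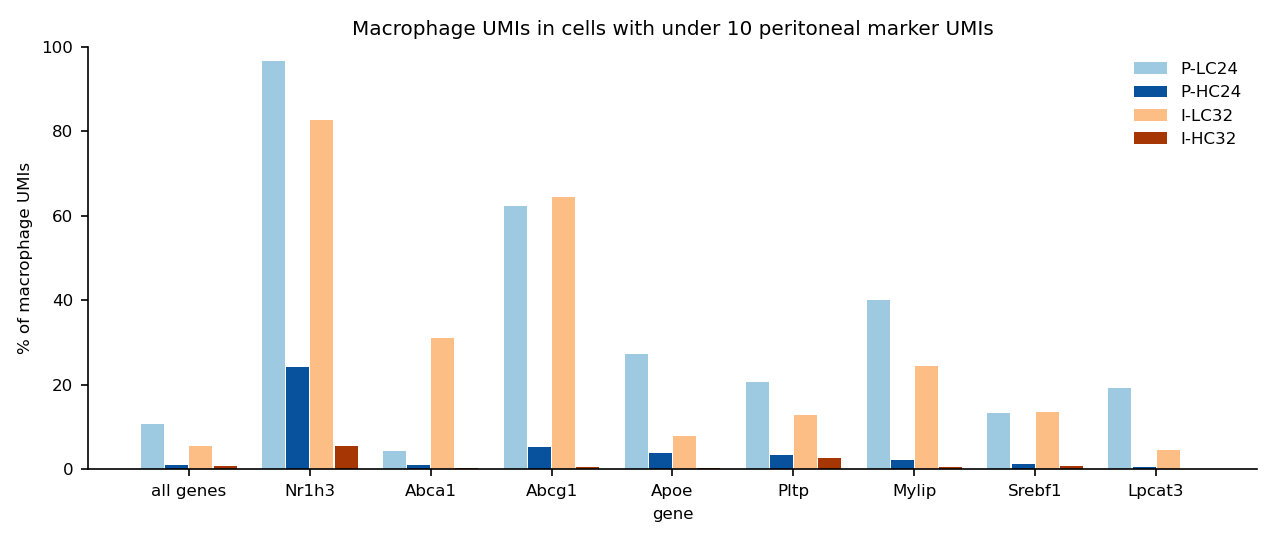
Share of macrophage UMIs (%) that came from cells with under 10 UMIs of the peritoneal markers, for all genes and for each of the 8 LXR target genes, by library. In P-LC24 these cells gave 10.6% of all UMIs but 96.7% of Nr1h3 and 62.2% of Abcg1 UMIs, and in I-HC32 they gave 0.662% of all UMIs and 0.606% of Abcg1 UMIs.

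Abca1 and Abcg1 encode transporters that pass cholesterol to apolipoprotein A-I and to mature high density lipoprotein. Abca1 (ENSMUSG00000015243, chr4:53030787-53159900, minus strand), whose promoter window is printed above, stood at 208, 249, 139 and 206 CPM in peritoneal-marker macrophages. I-LC32 was the lowest library and P-HC24 the highest. The log2 ratio was 0.26 (interval 0.05 to 0.47) in Prog, just under 1.2-fold, and 0.57 (0.35 to 0.81) in Int. Thinned to 2000 UMIs a cell, 31.4%, 33.8%, 19.9% and 28.6% of these cells held an Abca1 UMI, the same order of libraries within each comparison, while by UMIs per cell the Prog ratio was −0.30. In all macrophages the level was 194, 249, 190 and 205 CPM, and 31.1% of the I-LC32 UMIs came from its 7 cells under the peritoneal marker limit.

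Abcg1 (ENSMUSG00000024030, chr17:31276649-31336969, plus strand) changed direction with the kind of macrophage counted. In all macrophages it was 40.9, 26.8, 46.0 and 26.0 CPM, lower in both high cholesterol libraries, with log2 ratios of −0.61 (interval −1.08 to −0.12) in Prog and −0.82 (−1.23 to −0.40) in Int. In peritoneal-marker macrophages it was 17.3, 25.6, 17.3 and 26.0 CPM, higher in both, with ratios of 0.57 (−0.15 to 1.37) and 0.58 (−0.05 to 1.30) whose intervals included 0, the latter turning to −0.08 when cells of several gates were assigned to 1 of them. The 15 and 7 cells under the peritoneal marker limit in P-LC24 and I-LC32 held 62.2% and 64.4% of the macrophage Abcg1 UMIs. The plot of UMI shares by kind of macrophage sets this beside the share of all UMIs.

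**Figure D3:**
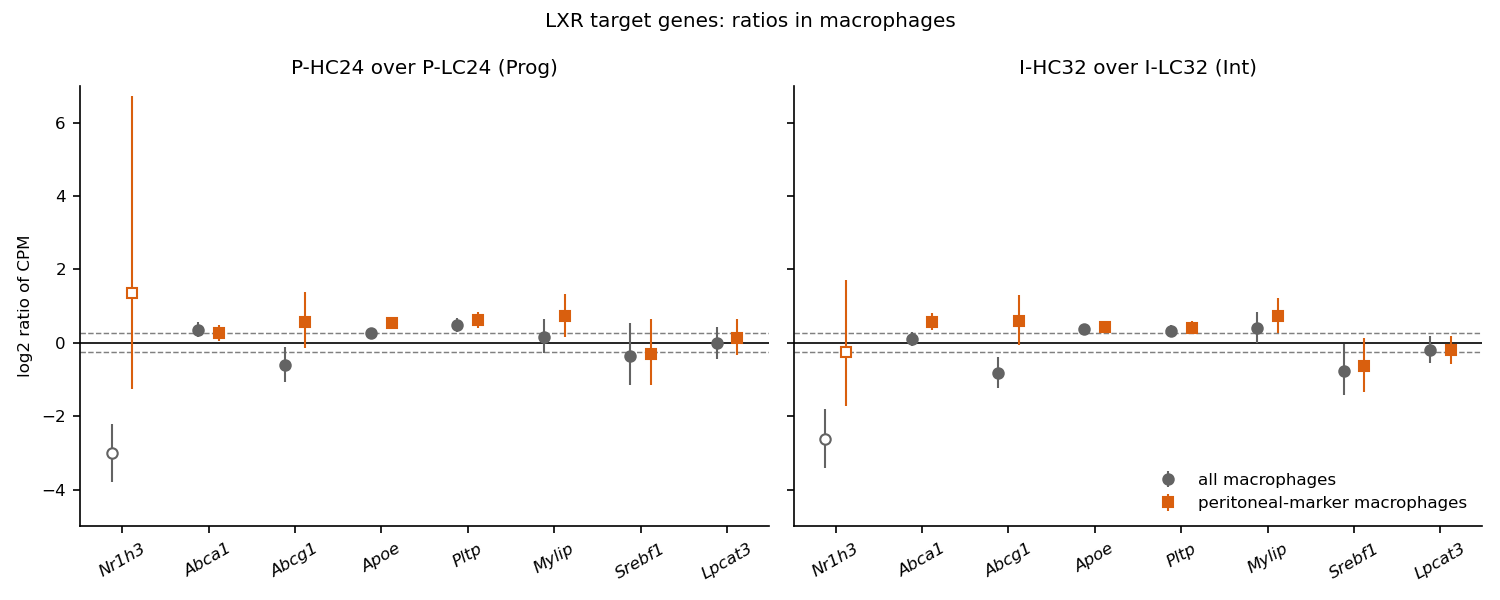
Log2 ratio of CPM for each LXR target gene in all macrophages (grey circles) and in peritoneal-marker macrophages (orange squares), in Prog and Int, with exact 95% intervals and dashed lines at 1.2-fold. Open symbols had too few UMIs to be compared; Abcg1 lies below 0 in all macrophages (−0.61 and −0.82) and above 0 in peritoneal-marker macrophages (0.57 and 0.58), while Apoe and Pltp lie above 0 in both, although by UMIs per cell the Prog ratio of Apoe in peritoneal-marker macrophages was −0.02.

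Apoe (ENSMUSG00000002985, chr7:19430034-19434947, minus strand), the apolipoprotein through which lipoproteins are recognised by their receptors, and Pltp (ENSMUSG00000017754, chr2:164677702-164701743, minus strand), which transfers phospholipid between lipoproteins, were higher by CPM in the high cholesterol libraries in both comparisons, whereas by UMIs per cell Apoe was not higher in Prog. Apoe in peritoneal-marker macrophages was 3534, 5112, 4268 and 5754 CPM, and both high cholesterol libraries stood above both low cholesterol libraries. The log2 ratios were 0.53 (interval 0.48 to 0.58) in Prog and 0.43 (0.39 to 0.47) in Int. Pltp was 199, 305, 239 and 317 CPM there, the same order, with ratios of 0.61 (0.40 to 0.83) and 0.41 (0.23 to 0.58). By UMIs per cell, the Prog ratio of Apoe turned to −0.02 and that of Pltp was 0.05. In all macrophages, Apoe was 4343, 5269, 4378 and 5731 CPM and Pltp 225, 312, 260 and 324 CPM. The all-macrophage Apoe ratio in Prog, 0.28, was −0.54 when each cell was first scaled to its own total.

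Apoe was spread over nearly all peritoneal-marker macrophages, with a UMI in 96.8%, 99.5%, 100% and 98.2% of them. The median cell held 22.6, 34.4, 31.4 and 39.1 Apoe UMIs per 10000 UMIs, and the 10% of cells with most Apoe held 31.0% to 36.3% of the Apoe UMIs. Across cells, Apoe and Pltp had the highest rank correlation among pairs of members (Spearman's rho 0.35 over 391 cells of P-HC24 and 0.40 over 596 cells of I-HC32). Abca1 and Mylip had rho 0.23 and 0.12, and Abca1 and Abcg1 0.19 and 0.15. These values are descriptions: cells of a library share its depth and handling.

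Mylip (ENSMUSG00000038175, chr13:45543215-45565501, plus strand) encodes a ubiquitin ligase that limits the uptake of lipoproteins. In peritoneal-marker macrophages it was 27.5, 45.3, 33.0 and 54.4 CPM, higher in both high cholesterol libraries, with log2 ratios of 0.72 (interval 0.16 to 1.34) and 0.72 (0.26 to 1.22). In all macrophages, at 40.9, 45.8, 41.3 and 54.3 CPM, the ratios were 0.16 (−0.28 to 0.64) and 0.39 (−0.01 to 0.83).

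Srebf1 (ENSMUSG00000020538, chr11:60089913-60113407, minus strand), the transcription factor of fatty acid synthesis whose promoter window is printed above, was 13.2, 10.7, 15.7 and 10.1 CPM in peritoneal-marker macrophages. Both ratios were below 0, at −0.31 (interval −1.15 to 0.66) and −0.64 (−1.34 to 0.14), on 13 and 19 UMIs in the low cholesterol libraries. Lpcat3 (ENSMUSG00000004270, chr6:124639765-124684440, plus strand), which places polyunsaturated fatty acids into membrane phospholipids, was 42.7, 47.1, 52.8 and 46.0 CPM, with ratios of 0.14 (−0.32 to 0.64) and −0.20 (−0.57 to 0.20). All 4 intervals included 0. The spans of Srebf1, Lpcat3 and Pltp overlap Rai1, Emg1 and Ctsa on the opposite strand. The Mylip span overlaps Gm56579, a counted non-coding RNA gene, on the same strand.

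Monocytes are blood cells of a classical kind, which enters inflamed tissue, and a patrolling kind, which stays along vessel walls. In Prog 1 of 6 compared members was higher and 2 lower in all monocytes, beside 19.3% and 33.9% of 4935 genes. In Int 3 were higher and 1 lower of 4, beside 18.8% and 24% of 4538 genes. With size factors the share of genes past 1.2-fold that were higher in Prog moved from 36.3% to 51.6%. Apoe was 2346, 1592, 1129 and 1707 CPM, with log2 ratios of −0.56 (interval −0.63 to −0.49) in Prog and 0.60 (0.51 to 0.69) in Int, opposite in sign. The Prog value depended on how cells were weighted and was −0.00 with each cell scaled to its own total. Pltp was 132, 170, 144 and 471 CPM, with ratios of 0.37 (0.12 to 0.62) and 1.71 (upper bound 1.92), and I-HC32 stood apart. S100a8, a neutrophil marker, was 1659, 318, 39.3 and 4491 CPM in these monocytes, also highest in I-HC32. Without the monocytes that held 10 or more S100a8 UMIs, a choice made after the data had been seen, the Pltp ratio was 0.38 (0.13 to 0.63) in Prog and 1.77 (1.55 to 1.98) in Int.

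The kinds of monocyte were then read apart on their own marker panels, with 56, 68, 125 and 41 classical and 56, 67, 25 and 30 patrolling cells. Apoe in classical monocytes was 2213, 685, 773 and 1337 CPM, and in patrolling monocytes 2981, 3975, 2878 and 3225 CPM. P-HC24 was thus the lowest library for the classical and the highest for the patrolling kind, with Prog ratios of −1.69 and 0.42. The 10% of classical cells with most Apoe (6, 7, 12 and 4 cells) held 55.8%, 63.4%, 57.1% and 50% of their Apoe UMIs. Abcg1 was 82.6, 89.9, 72.7 and 39.0 CPM in classical and 167, 253, 305 and 133 CPM in patrolling monocytes. Patrolling exceeded classical monocytes in 4 of 4 libraries, with intervals excluding 0, in Abcg1 (log2 ratios 1.02 to 2.07), Apoe (0.43 to 2.54) and Mylip (0.91 to 1.97). Pltp in classical monocytes was 54.6, 173, 145 and 605 CPM, and the 10% of cells with most Pltp held 45.5% to 87.5% of it, so few cells set its level. In patrolling monocytes it was 225, 244, 294 and 358 CPM.

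**Figure D4:**
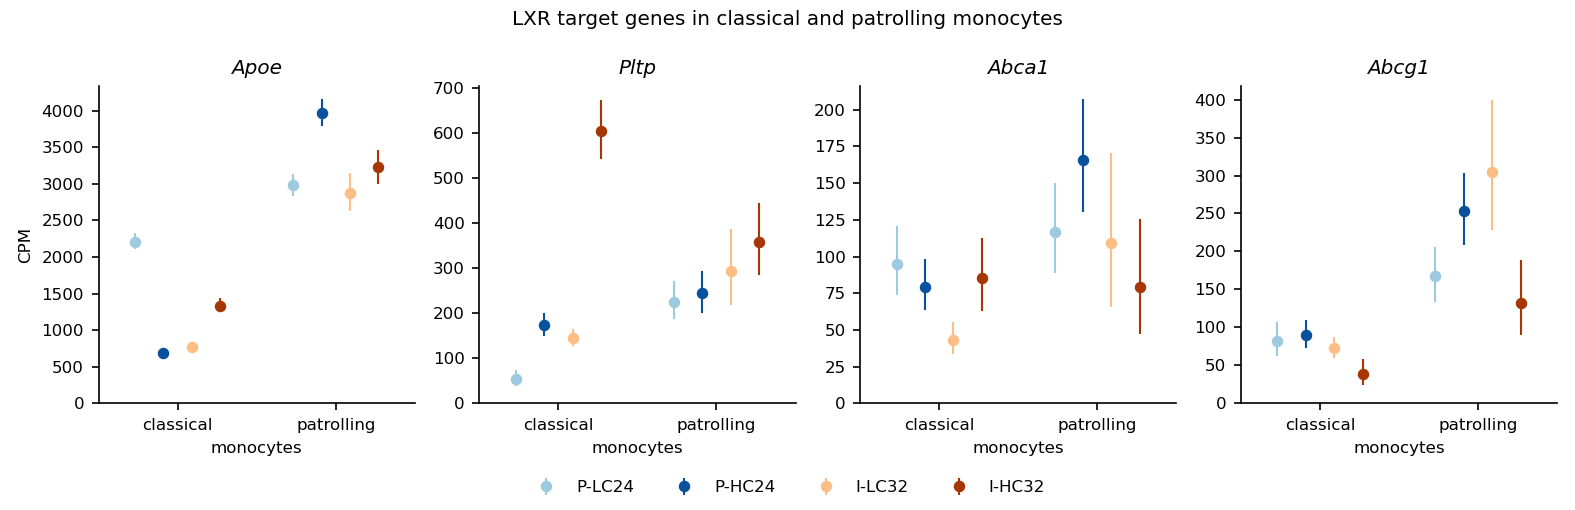
Level (CPM, linear axis) of Apoe, Pltp, Abca1 and Abcg1 in classical and patrolling monocytes of the 4 libraries, with exact 95% Poisson intervals. Abcg1 and Apoe are higher in patrolling monocytes in 4 of 4 libraries, and classical Pltp ranges from 54.6 CPM in P-LC24 to 605 CPM in I-HC32.

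Abca1 in all monocytes was 98.1, 103, 44.5 and 88.6 CPM, and as in peritoneal-marker macrophages I-LC32 was the lowest library. Its log2 ratio was 0.07 in Prog and 0.99 (interval 0.56 to 1.43) in Int. Abcg1 was 117, 124, 94.1 and 68.3 CPM, with ratios of 0.08 and −0.46 (−0.88 to −0.06). Mylip was 47.9, 43.6, 26.2 and 19.4 CPM, Lpcat3 42.6, 33.5, 29.0 and 31.6 CPM, and Srebf1 14.8, 15.4, 19.7 and 7.13 CPM, from 7 to 82 UMIs a library.

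Dendritic cells numbered 18 to 38 a library, and their values are levels only. Pltp was 83.1, 951, 842 and 551 CPM, with P-LC24 far below the other 3 libraries, from a UMI in 16.7%, 66.7%, 46.9% and 50% of cells. Mylip was 97.4, 6.26, 17.2 and 17.4 CPM, with P-LC24 far above the others, from 34, 3, 10 and 11 UMIs. Apoe had 0, 10, 4 and 11 UMIs, and the count of 0 in P-LC24 allows up to 10.6 CPM. The low Apoe level set these cells apart from monocytes in 4 of 4 libraries.

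B cells were the largest class in every library. In Prog 0 of 6 compared members were higher and 2 lower, beside 15.2% and 44.6% of 6604 genes, and in Int 1 was higher and 1 lower of 6, beside 13% and 7.23% of 7452 genes. Abca1 was 162, 109, 110 and 85.6 CPM, with a UMI in 56.6%, 49.3%, 48.9% and 46.1% of cells. P-LC24 was the highest and I-HC32 the lowest library, with log2 ratios of −0.57 (interval −0.64 to −0.51) and −0.36 (−0.42 to −0.29). Mylip was 123, 84.0, 66.0 and 77.0 CPM, with ratios of −0.55 (−0.62 to −0.48) in Prog and 0.22 (0.15 to 0.29) in Int. In Prog the median ratio of all B cell genes was −0.21, and relative to it, with size factors, the Abca1 and Mylip ratios were −0.37 and −0.34. Size factors also moved the share of genes past 1.2-fold that were higher in Prog from 25.4% to 55.8%, and UMIs per cell moved it to 65.5%. In Int that share was 64.3%, 50.7% with size factors and 97.6% by UMIs per cell, and the Abca1 ratio by UMIs per cell was −0.09.

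Both values were followed into B cells with at least 2 UMIs of Fcer2a, a marker of mature follicular B cells, and B cells with none. Fcer2a cells numbered 1073, 692, 937 and 554, and cells with none 1360, 2885, 2878 and 3508. Fcer2a cells had more Abca1 (log2 ratios 0.59 to 0.79) and more Mylip (0.42 to 0.64) and less Apoe (−0.98 to −0.17) in 4 of 4 libraries. Within Fcer2a cells the Abca1 ratio was −0.52 in Prog and −0.15 in Int, and within cells with none −0.34 and −0.32. The Mylip ratios were −0.49 and 0.35, and −0.41 and 0.24. The directions were thus the same in both kinds as in all B cells.

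Apoe in B cells was 200, 176, 184 and 190 CPM, with a UMI in 39.3%, 45.2%, 40.6% and 52.6% of cells. Because macrophage RNA can be free in a droplet library, the peritoneal macrophage gene Prg4 was read beside it. B cells held 127, 26.9, 95.4 and 13.4 Apoe UMIs per Prg4 UMI and T cells 4.05, 2.86, 2.69 and 1.54, while peritoneal-marker macrophages held 0.762, 1.47, 1.05 and 1.18. B cells without macrophage RNA numbered 2889, 3318, 4073 and 2730, and their Apoe level was 204, 178, 187 and 196 CPM. The ratio between diets was −0.19 in Prog, which turned to 0.02 with size factors and 0.08 by UMIs per cell, and 0.05 in Int. Free RNA of all cells was also subtracted, with its share in B cells (1.39%, 3.69%, 2.35% and 5.53% of UMIs) set from T cell markers. B cell Apoe was then 197, 139, 180 and 133 CPM, with ratios of −0.50 in Prog and −0.44 in Int, so that the Int direction turned. In I-HC32 the free share was set at 5.53% in B cells and 1.07% in T cells. Prg4 had 718 UMIs in the 4737 B cells and 151 UMIs in the 993 T cells of that library. Whether these shares hold for macrophage RNA was not tested, so the turned direction rests on the share used. The 7 hepatocyte markers read beside Apoe (Alb, Apoa1, Apoa2, Ttr, Serpina1a, Apoc3, Fgb) summed to 10.4, 3.87, 1.85 and 3.06 CPM in B cells. Abcg1 (59.2, 63.0, 50.2 and 56.1 CPM), Pltp (13.4, 14.4, 13.7 and 14.1 CPM) and Lpcat3 (20.1, 21.9, 20.2 and 25.7 CPM) had ratios under 1.2-fold, apart from Lpcat3 in Int, at 0.34 (interval 0.22 to 0.47). With free RNA subtracted at the same shares, Pltp was 13.2, 11.3, 13 and 9.11 CPM. Its ratios were then −0.23 and −0.51, in place of 0.11 and 0.04 without subtraction.

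**Figure D5:**
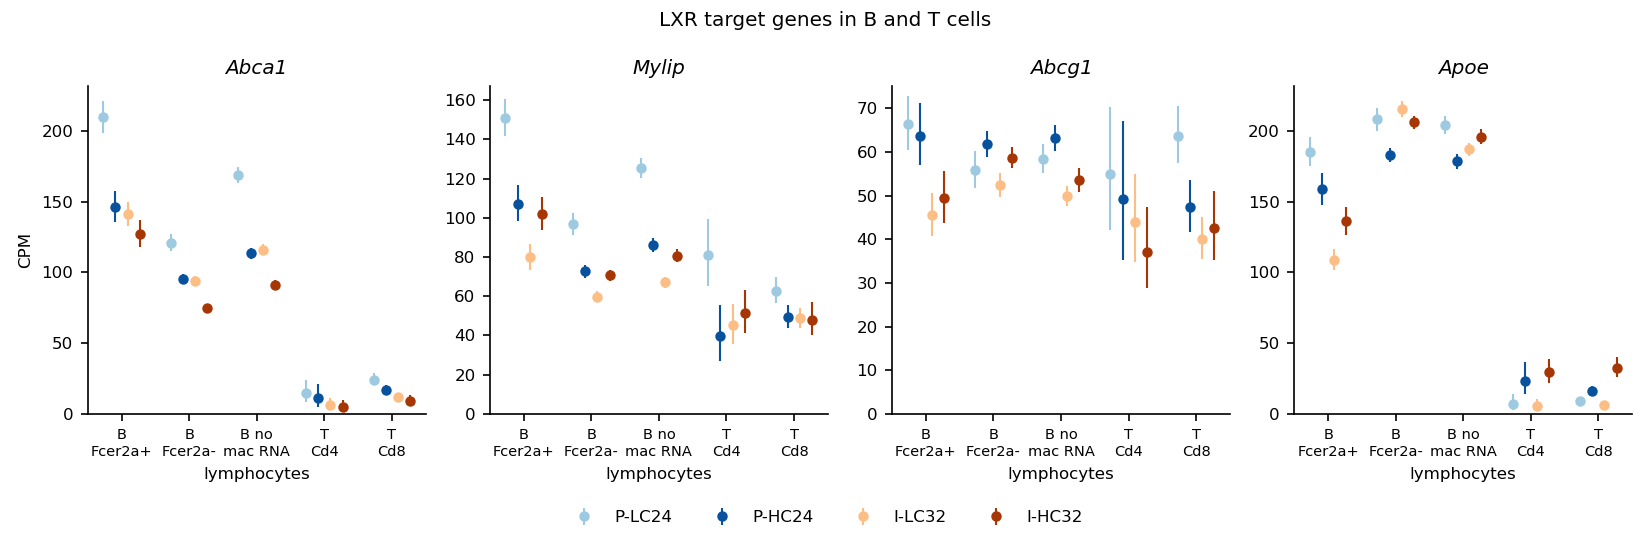
Level (CPM, linear axis) of Abca1, Mylip, Abcg1 and Apoe in B cells with Fcer2a, B cells with none, B cells without macrophage RNA, and T cells with Cd4 or Cd8 genes, by library, with exact 95% Poisson intervals. Abca1 and Mylip are higher in B cells with Fcer2a than with none in 4 of 4 libraries, and Apoe is far lower in T cells than in B cells.

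T cells held less Abca1, Apoe, Pltp and Mylip than B cells and more Lpcat3, with intervals that excluded 0 in 4 of 4 libraries. In Prog 1 of 5 compared members was higher and 3 lower, beside 11.5% and 46.4% of 6811 genes, and in Int 1 was higher and 0 lower of 4, beside 17.9% and 10.1% of 6694 genes. Abca1 was 23.0, 15.8, 10.7 and 7.18 CPM, with a Prog ratio of −0.54 (interval −0.87 to −0.22) and too few UMIs to be compared in Int. Mylip was 70.4, 49.8, 50.1 and 43.2 CPM and Abcg1 60.8, 48.1, 43.8 and 38.1 CPM, each highest in P-LC24, with Prog ratios of −0.50 (−0.68 to −0.32) and −0.34 (−0.53 to −0.15). The median of all T cell genes in Prog was −0.23, and with size factors the Abca1, Mylip and Abcg1 ratios were −0.32, −0.27 and −0.11. The share of genes past 1.2-fold that were higher was 19.9% in Prog (55.6% with size factors, 7.49% by UMIs per cell) and 63.9% in Int (52.0% and 32.3%). Lpcat3 was 30.9, 26.7, 29.1 and 34.6 CPM, and its Prog ratio of −0.21 turned to 0.02 with size factors.

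Apoe was the member that was higher in T cells in both comparisons, at 10.1, 19.5, 6.00 and 33.5 CPM, with log2 ratios of 0.94 (interval 0.56 to 1.33) and 2.48 (2.09 to 2.89). Prg4, which T cells should lack, was 2.50, 6.80, 2.23 and 21.7 CPM in the same cells, also higher in both high cholesterol libraries, where macrophages were more numerous. Apoe had a UMI in 5.52%, 13.7%, 4.35% and 19.8% of T cells. Free RNA of all cells was subtracted, with its share in T cells (0.516%, 0.813%, 0.634% and 1.07% of UMIs) set from B cell markers. T cell Apoe was then 7.94, 10.3, 3.96 and 21.2 CPM and the ratios were 0.37 in Prog and 2.42 in Int. Whether these shares hold for macrophage RNA was not tested. Apoe UMIs per Prg4 UMI in T cells came nearest to those of peritoneal-marker macrophages in I-HC32 (1.54 against 1.18), and were furthest in P-LC24 (4.05 against 0.762). The ratios with subtraction thus do not show that the Apoe came from the T cells.

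The rest of the pathway was read from 2 lists, of 9 receptors, partners and cofactors and of 15 other genes listed as LXR targets. Whether each listed gene is a target in these mouse cells was not tested. Of the first list, 0 of 8 compared genes were higher and 5 lower in all macrophages in Prog, beside 18.2% and 44.5% of all genes, and 1 was higher and 2 lower in Int, beside 17.2% and 29.3%. In peritoneal-marker macrophages 2 were higher and 5 lower of 8 in Prog, beside 20.6% and 38.1% of all genes, and 3 were higher and 2 lower in Int, beside 19.8% and 25.8%. Of the other targets, read against the same shares, 2 were higher and 4 lower of 9 in Prog and 4 were higher and 1 lower of 9 in Int in all macrophages. In peritoneal-marker macrophages 2 were higher and 4 lower of 9 in Prog, and 5 were higher and 1 lower in Int. Rxra, the receptor's partner, was 47.3, 23.4, 33.5 and 21.5 CPM in all macrophages, lower in both high cholesterol libraries (log2 ratios −1.02 and −0.64, and in peritoneal-marker macrophages −1.07 and −0.69). The co-repressor Ncor1 was 216, 123, 162 and 157 CPM (−0.81 and −0.05, peritoneal-marker −0.71 and −0.05) and the co-activator Ncoa1 177, 159, 189 and 216 CPM (−0.15 and 0.19, peritoneal-marker −0.17 and 0.28). Lpl, the lipase that frees fatty acids from lipoproteins, was 345, 123, 384 and 120 CPM, with ratios of −1.49 (interval −1.66 to −1.32) and −1.68 (−1.83 to −1.53), and in peritoneal-marker macrophages −1.35 and −0.88. The direction of Lpl was thus opposite to that of Apoe and Pltp in the same cells. Smpdl3a was 567, 871, 752 and 957 CPM (0.62 and 0.35, peritoneal-marker 0.53 and 0.31), in the order of Apoe. Mid1ip1, which acts with acetyl-CoA carboxylase in fatty acid synthesis, was 49.1, 60.8, 66.3 and 84.6 CPM (0.31 and 0.35, peritoneal-marker 0.16 and 0.29), and Cd5l, a secreted macrophage protein, was 718, 755, 1133 and 971 CPM (0.07 and −0.22, peritoneal-marker 0.03 and −0.06).

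In the other classes the lists gave fewer compared genes. In monocytes, 0 receptors and cofactors were higher and 4 lower of 6 in Prog, beside 19.3% and 33.9% of all genes, and 0 were higher and 1 lower of 5 in Int, beside 18.8% and 24%. Of the other targets, read against the same shares, 1 was higher and 2 lower of 8 in Prog, and 5 were higher and 1 lower of 7 in Int. In B cells and T cells alike, 0 receptors and cofactors were higher and 5 lower of 7 in Prog, and 2 were higher and 0 lower of 7 in Int. Of all genes, 15.2% were higher and 44.6% lower in B cells in Prog and 13% and 7.23% in Int, and in T cells 11.5% and 46.4%, then 17.9% and 10.1%. The median ratio of that list in Prog was −0.42 in B cells and −0.38 in T cells, and that of all genes −0.21 and −0.23.

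Genes with the most similar pattern were sought over 15 profiles, each a class in a library with at least 50 cells, among 11476 genes, by Pearson's r of log2(CPM + 1). The profiles share libraries and differ mostly by class, so r is a description. Apoe was most like Wfdc17 (r = 0.987), Itgam and Bri3, and Pltp most like Ctnnd1 (0.988), Cst3 and Gpx1. Nr1h3 was most like Axl (0.980), a receptor for dying cells, then Ptpn12 and Rnf217. Abca1 was most like Cat (0.954), which encodes catalase, then Blvrb and Nucb2. Abcg1 was most like Msn (0.931), Tmem156 and Zfp384, and Lpcat3 most like Frmd4b (0.95), Adipor2 and Hgsnat. Mylip was most like Gm16279 (0.919), Mybbp1a and Zfp982, and Srebf1 most like Slfn9 (0.901), Irgm1 and Mrps28.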

How the data were processed

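The authors aligned and counted the reads of each library with Cell Ranger 9.0.1 against GRCm39 and used Seurat 5.3, per the submitters' processing notes, and deposited filtered matrices of raw UMI counts per gene and cell. Whether counting was limited to exons or to 1 strand is not given in the sources used here. The deposited counts were used as they stood. Cells with at least 500 UMIs, at least 300 genes and at most 10% mitochondrial UMIs were kept. Of these, the cells with the highest Scrublet scores were left out as likely doublets (212, 382, 440 and 432 barcodes). Their share was set in advance at 0.8% for every 1000 cells and was not a count of detected doublets. Kept cells had a median of 6298 to 8541 UMIs.

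Cells were gated on raw marker UMIs: B cells on at least 10 UMIs of at least 3 of 5 markers (among them Cd79a, Cd79b, Ms4a1 and Ebf1), T cells on 3 UMIs of 2 of 4 (Cd3d, Cd3e, Cd3g, Trac), and macrophages on 10 UMIs of 3 of 6 (Adgre1, C1qa, C1qb, C1qc, Vsig4, Timd4). Monocytes needed 5 UMIs of 2 markers of the classical (Ccr2, Ly6c2, Chil3, F13a1) or patrolling panel (Ace, Treml4, Eno3, Cx3cr1), and dendritic cells 3 UMIs of 2 of 5 (Flt3, Xcr1, Clec9a, Cd209a, Zbtb46). These 3 classes also needed 10 UMIs of 2 of Csf1r, Lyz2 and Cst3. Cells that passed more than 1 gate were left out. UMIs were summed per class and library. Shares of cells have Clopper-Pearson intervals, levels exact Poisson intervals and ratios exact conditional intervals, at the 95% level. The ratio step was tested on simulated data. The members and lists were chosen with earlier results of these data known. Named genes were the 8 members, and of each list the 2 with the highest mean CPM in macrophages and those past 1.2-fold in 1 direction in both comparisons. For each member the 3 genes with the most similar pattern were also named. Gene positions came from the GRCm39 annotation. A list of lipoprotein receptors is not reported here. Alternatives covered scaling, filters, gates, doublets and free RNA. The software was scanpy 1.11.5, scipy 1.17.1, numpy 2.4.6, pandas 2.3.3 and matplotlib 3.10.9 on Python 3.11.15.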

Additional observations from a re-analysis of the deposited data

Results flagged for a closer look

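Apoe in monocytes moved in opposite directions in the comparisons of diet: the log2 ratio was −0.56 in Prog and 0.60 in Int, with counting intervals that do not overlap. The difference was not tested, since each condition was 1 library. The classical monocytes gave −1.69 and 0.79 and the patrolling monocytes 0.42 and 0.16.

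Cells outside all gates, which no comparison used, held Apoe at 387 CPM in P-LC24, 434 CPM in P-HC24, 87.5 CPM in I-LC32 and 397 CPM in I-HC32. The 434 CPM of P-HC24 stood above the low cholesterol library of the same week.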

How the results depend on the processing

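No paired analysis was possible because each condition was 1 library and the labels give no replicate numbers. Of 640 recomputed member levels, 604 moved by less than the spread over libraries. Of 160 recomputed shares of cells with a UMI, by contrast, 147 moved and 13 did not. Shares given without thinning are not adjusted for depth, and the median UMIs of B cells were 5835, 6600, 6762.5 and 8591. Of 764 recomputed log2 ratios, 636 did not move beyond their intervals, 120 did, and 8 of those past the fold changed sign. The sign changed for Apoe in all macrophages in Prog with each cell scaled to its own total (−0.54), for Abcg1 in all macrophages with only cells holding a Gata6 UMI (0.47 in Prog, 0.46 in Int) or only peritoneal-marker cells (0.57 and 0.58), for Apoe in monocytes in Prog with patrolling cells only (0.42), and, in peritoneal-marker macrophages, for Apoe in Prog by UMIs per cell (−0.024) and Abcg1 in Int with cells of several gates assigned (−0.082). The peritoneal, Fcer2a, Cd4 and S100a8 splits were added after seeing the data.

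Counts of members past the fold in either direction moved by over 1.5 times as follows, and the shares of all genes higher and lower stand beside them. By UMIs per cell, the counts went from 5 to 3 in macrophages and from 5 to 3 in peritoneal-marker macrophages in Prog, from 2 to 5 in B cells in both comparisons, and from 1 to 3 in T cells in Int. Of all genes, 11.1% were then higher and 57.5% lower in macrophages in Prog, and 4.33% and 81.4% in peritoneal-marker macrophages. In B cells these shares were 33.4% and 17.6% in Prog and 60.4% and 1.5% in Int, and in T cells in Int 9.58% and 20.1%. With size factors the B cell count in Prog was 5, beside 29.1% of genes higher and 23.0% lower. With each cell scaled to its own total, the count was 3 in macrophages and 3 in T cells in Int. The shares of genes in Int were then 22.1% and 28.4% in macrophages and 18.2% and 10.2% in T cells. At 1.5-fold, the Prog and Int counts were 1 and 2 in macrophages, 2 and 2 in peritoneal-marker macrophages, and 0 and 0 in B cells, and in Prog 0 in monocytes and 1 in T cells. At that fold the shares of genes in Prog were 6.48% and 21.5% in macrophages, 8.10% and 15.1% in peritoneal-marker macrophages, and 2.42% and 12.7% in B cells. In Int they were 6.18% and 8.68%, 7.10% and 6.46%, and 1.73% and 1.11%. In monocytes in Prog they were 4.58% and 9.73%, and in T cells 1.64% and 13.4%. At most 5% mitochondrial UMIs gave 3 in macrophages in Prog (18.3% and 43.9% of genes) and 3 in T cells in Int (17.8% and 11.3%). A filter of 20 UMIs gave 7 in monocytes and 4 in T cells in Int. The shares of genes in Int were then 24.5% and 28.6% in monocytes and 23.7% and 19.3% in T cells. With doublets kept, monocytes gave 1 in Prog (19.9% and 32.6% of genes). Patrolling cells alone gave 1 in monocytes in Int, cells with Cd4 gave 1 and 0 in T cells, and subtraction of free RNA gave 4 in B cells in Int. The cause of these changes was not tested, apart from those that follow from fewer genes compared. Depth limits Nr1h3 and Srebf1 in macrophages most, with 1 to 37 and 13 to 128 UMIs a library.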
